A study of Mus musculus with 35 samples.

Results

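The mitosis and G2/M genes are a list of 58 mouse genes whose products take a cell from the end of DNA replication through chromosome segregation to division. The list was drawn up by name, from the known roles of the genes, and the rule used no measured value. It was nevertheless chosen with earlier results of these data known. All 58 were found among the 48709 genes counted, and all 58 were among the 13819 genes that passed the filter on low counts. The lowest count of any of them in any library was 15, for Cdc25c, and the highest was 66754, for Top2a.

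RNA was sequenced in bulk from cytotoxic T lymphocytes (CTLs), CD8+ effector T cells, of OT-I mice. OT-I T cells carry a transgenic receptor for a peptide of ovalbumin, so the cultures stand for cells of a single specificity. CD8+ T cells of the spleen were primed with antibodies against CD3 and CD28 and expanded in IL-2, the cytokine that drives CTL growth, and every group, 0 h included, shares this history. Mouse age was not given in the sources used here.

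The 35 libraries fall into 7 groups of 5 biological replicates, numbered 1 to 5. The 0 h group was taken before any treatment. The other groups were cultured for 24 h in medium at pH 7.4, pH 7 or pH 6.6, set with acid, with no IL-2 added or with IL-2 at 200 IU/mL. Dead cells were removed on a density gradient before RNA extraction, so the libraries describe the cells that survived. Reads counted on genes numbered from 16721319 to 34033340 in a library. Levels are given as CPM, counts scaled to a common library size and corrected for library composition. A difference is given as a log2 fold change with its standard error (SE), and it is called where the adjusted p of edgeR's quasi-likelihood test, over all 13819 genes and with the replicate number as a block, was under 0.05.

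The libraries carried the markers of CD8+ T cells, with Cd8a, a chain of the CD8 coreceptor, at group means between 719 and 1402 CPM. The summed level in a library was at most 0.381 CPM for 4 B cell markers, with Ms4a1 and Pax5 at 0 in every library, and at most 0.235 CPM for 3 erythroid markers, with Hbb-bs at 0. It was at most 3.98 CPM for 5 myeloid and 5.5 CPM for 3 CD4+ T cell markers. For 4 genes listed for NK cells the summed level was higher, from 237 to 936 CPM.

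In the cell cycle, the kinase CDK1 bound to cyclins A and B starts mitosis, Polo and Aurora kinases build the spindle, and the spindle checkpoint holds back the anaphase-promoting complex (APC/C) until every kinetochore is attached. Most of the genes are transcribed in G2 and M, under B-MYB with the MuvB proteins and FOXM1, and are repressed in resting cells by the DREAM complex. T cells that respond to IL-2 enter the cycle and express genes of this kind, and their RNA is often read as a measure of proliferation.

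Mitosis and G2/M RNA was high at pH 7.4 and at pH 7 in cells given IL-2 and lowest in cells without IL-2 at pH 7.4. The median log2 CPM over the 58 genes was 7.42 ± 0.09 (SD, n = 5) at pH 7.4 and 7.23 ± 0.18 at pH 7 with IL-2. It was 5.62 ± 0.24 at pH 6.6 with IL-2, 5.36 ± 0.36 at pH 6.6 without IL-2 and 5.32 ± 0.25 at 0 h, and the ranges of these 3 groups overlapped. Without IL-2 it was 4.20 ± 0.54 at pH 7 and 3.42 ± 0.50 at pH 7.4. The level was thus lower in acid when IL-2 was present and higher in acid when it was absent. In bulk RNA, fewer cells in G2 and M cannot be told apart from less of this RNA in each cell.

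**Figure D1:**
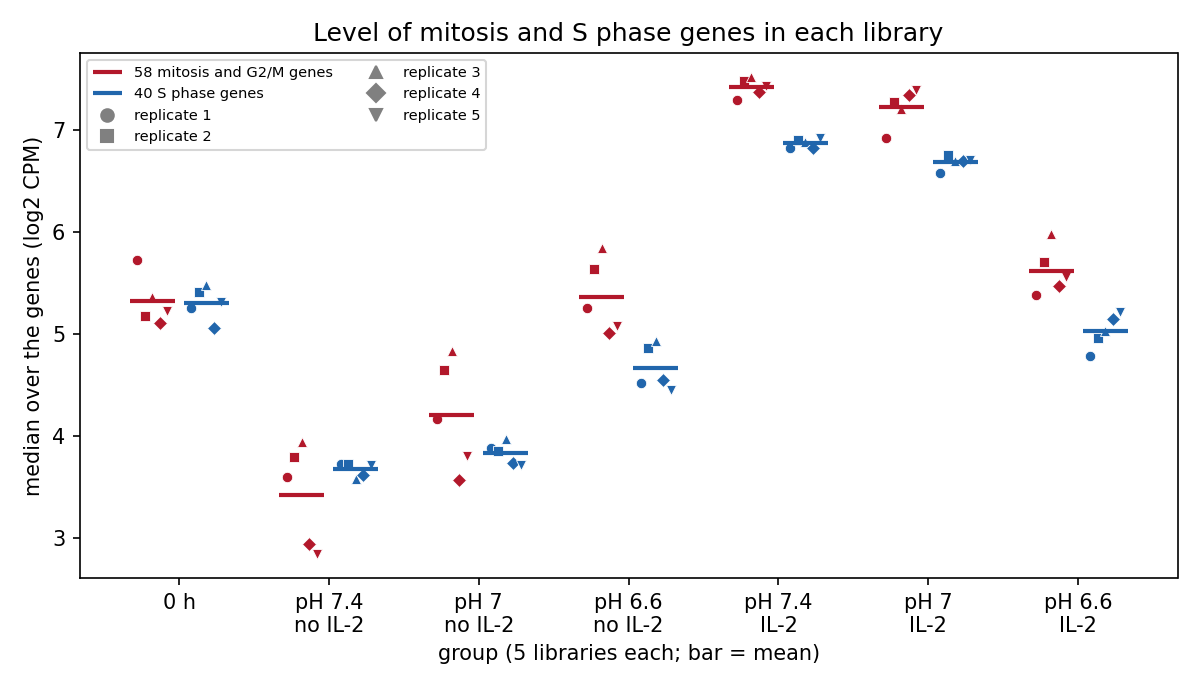
Median log2 CPM over the 58 mitosis and G2/M genes and over 40 S phase genes in each library, by group; points are libraries and bars the mean of 5. The mitosis level at pH 6.6 lay between 5.01 and 5.98 with or without IL-2, against 7.29 to 7.52 at pH 7.4 with IL-2 and 2.84 to 3.94 at pH 7.4 without IL-2.

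The 58 genes took 1.38% ± 0.126 of all counts at pH 7.4 with IL-2, 0.557% ± 0.0719 at pH 6.6 with IL-2, 0.512% ± 0.0993 at pH 6.6 without IL-2 and 0.197% ± 0.0309 at pH 7.4 without IL-2 (mean and SD of 5 libraries). Of the 58, 54 had their highest group mean at pH 7.4 with IL-2 and 53 their lowest at pH 7.4 without IL-2. These counts were not made over all genes, of which 39.3% were higher and 41.1% lower with IL-2 at pH 7.4. Per kilobase of exon, the levels at pH 7.4 with IL-2 ran from 223 ± 34.1 CPM per kb for Top2a, the topoisomerase that untangles chromosomes, down to 5.05 ± 0.6085 CPM per kb for Kif18a, a kinesin that aligns chromosomes.

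Most promoters examined for the list hold motifs that played no part in choosing it. The CHR element (searched as TTTGAA or TTCGAA, on both strands) is bound by MuvB complexes, and the CCAAT box (CCAAT, on both strands) by NF-Y; matches of the motifs may overlap and each was counted. RefSeq promoter windows (GRCm38.p6, from 250 bases before to 50 after a transcription start) were matched for 50 of the 58 genes, in 53 windows. For Pttg1, Kif2c, Cdca3, Cdca8, Cenpm, Kif4 and Kif14 the window lay wholly inside the gene as annotated in GENCODE M21. The sequence at the annotated starts of these genes was not searched. The CHR letters stood in 79.2% of them, against 19.2% of 32851 windows of all genes. CCAAT stood in 75.5%, against 37.4%, and both in the same window in 69.8%, against 7.52%. In 92 windows of 79 other mitosis genes the CHR letters stood in 38%, CCAAT in 56.5% and both in 21.7%. In 34 windows of S phase genes the shares were 20.6% for the CHR letters and 67.6% for CCAAT. A match is a run of letters and says nothing of what binds there.

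Stretches from 160 bases before to 30 bases after the start are printed for 6 genes, 5′ to 3′ on the gene's strand, with motif letters in capitals (TTCAAA and ATTGG are TTTGAA and CCAAT on the other strand). Cdk1 (chr10:69352883-69353072, minus strand), Ccnb2 (chr9:70421525-70421714, minus), Cdc20 (chr4:118437314-118437503, minus) and Kif11 (chr19:37376222-37376411, plus) are shown as genes that moved with most of the list. Cenpa (chr5:30666726-30666915, plus) and Pttg1 (chr11:43425952-43426141, minus) are shown as genes that did not.
Cdk1: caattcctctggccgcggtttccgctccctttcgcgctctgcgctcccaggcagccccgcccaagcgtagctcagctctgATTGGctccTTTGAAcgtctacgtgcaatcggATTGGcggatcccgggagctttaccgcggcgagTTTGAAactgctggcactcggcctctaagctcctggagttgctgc
Ccnb2: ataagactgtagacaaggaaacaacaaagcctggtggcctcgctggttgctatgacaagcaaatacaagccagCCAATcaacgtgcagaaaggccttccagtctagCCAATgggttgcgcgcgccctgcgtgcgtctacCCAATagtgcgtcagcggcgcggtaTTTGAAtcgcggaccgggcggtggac
Cdc20: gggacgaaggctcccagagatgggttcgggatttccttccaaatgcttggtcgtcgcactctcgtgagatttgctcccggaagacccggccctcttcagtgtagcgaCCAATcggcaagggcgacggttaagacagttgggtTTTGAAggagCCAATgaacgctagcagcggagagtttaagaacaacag
Kif11: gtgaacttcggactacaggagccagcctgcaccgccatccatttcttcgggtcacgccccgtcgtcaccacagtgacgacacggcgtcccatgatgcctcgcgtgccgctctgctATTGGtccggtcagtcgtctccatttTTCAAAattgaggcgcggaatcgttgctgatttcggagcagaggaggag
Cenpa: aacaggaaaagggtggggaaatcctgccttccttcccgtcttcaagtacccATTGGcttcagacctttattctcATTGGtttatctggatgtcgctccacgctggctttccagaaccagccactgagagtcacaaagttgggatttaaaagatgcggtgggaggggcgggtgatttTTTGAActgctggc
Pttg1: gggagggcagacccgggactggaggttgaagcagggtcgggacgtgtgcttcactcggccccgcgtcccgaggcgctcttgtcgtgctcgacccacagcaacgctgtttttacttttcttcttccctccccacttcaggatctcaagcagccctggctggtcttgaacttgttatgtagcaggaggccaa
The Cdk1 stretch holds 2 CHR and 2 CCAAT matches, and that of Ccnb2, which encodes cyclin B2, 1 and 3. Cdc20 and Cenpa hold 1 CHR and 2 CCAAT matches each and Kif11 holds 1 of each. The Pttg1 stretch holds neither motif, but it lies inside the gene as annotated in GENCODE M21. The promoter at the annotated start of Pttg1 was therefore not examined. Both motifs are in the stretches of Cenpa and of Cdk1, whose RNAs differed in course across the groups.

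**Figure D2:**
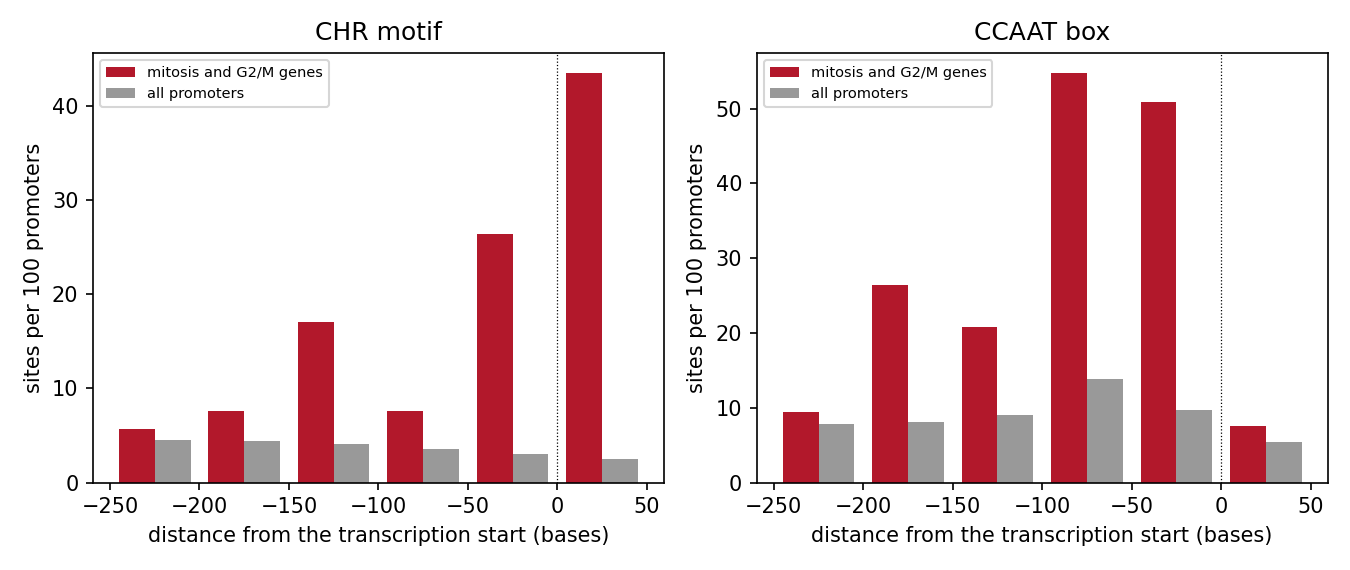
Number of CHR and CCAAT matches per 100 promoter windows in 50-base steps from the transcription start, for the mitosis and G2/M genes and for all promoters. In the 50 bases after the start the mitosis windows held 43.4 CHR matches per 100 against 2.52, and from 100 to 50 bases before it 54.7 CCAAT boxes against 13.8.

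With IL-2, the median log2 fold change of pH 6.6 against pH 7.4 was -1.69 over the 39 genes with a CHR match and -1.57 over the 11 without. Without IL-2 the medians were 1.93 and 1.41. The ranges of both sets overlapped in each setting, and the difference was not tested. Genes were sorted by the RefSeq windows alone, some of which lay inside the annotated gene.

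The first comparison asks what acidity does to CTLs that have IL-2. At pH 6.6 with IL-2, 55 of the 58 genes were lower than at pH 7.4 with IL-2 and 2 were higher, with a median log2 fold change of -1.68. Over all genes tested, 40.9% were lower and 35.4% higher, with a median of -0.07. The acidic libraries lay wholly below the neutral ones for 55 of the 58, as they did for 33.1% of all genes. In the 5 pairs of same-numbered libraries the median difference over the list was between -1.77 and -1.47.

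Marker levels differed between the same groups. The summed level of the 7 CD8+ T cell markers was 9160 to 11800 CPM at pH 7.4 and 3130 to 4310 CPM at pH 6.6 with IL-2. Most of that gap lay in Gzmb, which encodes granzyme B, at 7796 ± 935 and 845 ± 323 CPM (SD, n = 5). Prf1, which encodes perforin, was lower too, at 380 ± 166 and 92.7 ± 42.5 CPM. The receptor chains did not follow these genes. Cd3e was at 411 ± 23.5 and 581 ± 30.9 CPM, Trac at 357 ± 35.55 and 572 ± 70.4 CPM and Cd8a at 938 ± 168 and 1046 ± 159 CPM. Cd3d was at 321 ± 48.7 and 309 ± 13.2 CPM, and Cd8b1 at 255 ± 25.7 and 270 ± 33.8 CPM. The summed level of 4 genes listed for NK cells was 733 to 936 and 289 to 443 CPM, most of it Eomes and Klrk1, which CTLs express too. Klrb1c, also on that list, was at 44.2 ± 1.13 and 25.8 ± 6.41 CPM. Ncr1, the defining receptor of NK cells, was at most 0.0694 CPM. The part of these levels in the result was not tested.

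All 8 genes of CDK1, its cyclins and its activators fell, with a median of -2.17. Cdk1 measured 248, 271, 289, 265 and 294 CPM in replicates 1 to 5 at pH 7.4 and 41.5, 46.8, 50.97, 53.5 and 50.7 CPM at pH 6.6. The groups did not overlap, and Cdk1 fell by 2.48 ± 0.18 (SE) on the log2 scale (adjusted p = 1.09e-13). Cks1b, a small subunit that binds cyclin-dependent kinases, fell the most of the 58. It went from 111, 118, 118, 116 and 123 CPM to 16, 13.55, 17.03, 19.2 and 18.8 CPM, by 2.79 ± 0.13 (adjusted p = 1.13e-18). Again no acidic library came near a neutral one.

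Ccnb1, which encodes cyclin B1, was at 128.5, 128, 128, 121 and 121 CPM at pH 7.4 and 30.04, 22.03, 25.6, 21.96 and 24.5 CPM at pH 6.6, and fell by 2.34 ± 0.16 (adjusted p = 6.38e-15). Only 76.6% of the 50-base windows of its exons occur in no transcript of another gene, so its counts are less certain. Cdc25b, the phosphatase that activates CDK1, had the smallest change of its group, falling by 0.66 ± 0.13 (adjusted p = 2.89e-05).

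Both transcription factors of the program fell. Foxm1 was at 153, 176, 176, 162 and 156 CPM at pH 7.4 and 45.35, 59.6, 64.7, 53.8 and 56.6 CPM at pH 6.6, without overlap, and fell by 1.56 ± 0.17 (adjusted p = 8.40e-10). Mybl2, which encodes B-MYB, fell by 2.48 ± 0.15 (adjusted p = 6.30e-16), with 80.7% of its 50-base windows unique to it.

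All 7 genes of the Polo and Aurora A axis and spindle assembly fell, with a median of -1.69. Plk1, the Polo kinase, was at 130.2, 160.4, 162.5, 157.5 and 149 CPM at pH 7.4 and 25.2, 29.5, 31.75, 27.6 and 27.15 CPM at pH 6.6. The groups stood far apart, and its fall of 2.43 ± 0.15 (adjusted p = 4.97e-16) was the largest of its group. Ckap5, which promotes microtubule growth, fell the least, by 1.16 ± 0.12 (adjusted p = 9.75e-11).

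The 4 genes of the chromosomal passenger complex, which corrects faulty attachments, fell with a median of -1.91. Aurkb, the kinase of the complex, was at 163, 179.7, 183, 168 and 176 CPM at pH 7.4 and 39.35, 51.5, 53.9, 46.9 and 45.5 CPM at pH 6.6, again without overlap. Birc5, which encodes survivin, fell by 2.40 ± 0.19 (adjusted p = 9.49e-13) and Incenp, the scaffold, by 1.04 ± 0.10 (adjusted p = 1.81e-11).

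The 5 spindle checkpoint genes fell with a median of -1.61. Bub1b, which encodes the APC/C inhibitor BUBR1, went from 194.5, 244, 241.5, 206 and 207 CPM to 59.3, 76.04, 87.7, 64.1 and 71.8 CPM, by 1.61 ± 0.15 (adjusted p = 1.74e-11). Its groups did not overlap. Bub1, a checkpoint kinase, fell the most of this group, by 1.88 ± 0.21 (adjusted p = 3.54e-09), and Bub3, the partner of both, the least, by 1.08 ± 0.06 (adjusted p = 2.31e-16).

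At the centromere and kinetochore, 5 of 6 genes fell. Nuf2, a subunit of the NDC80 complex that grips microtubules, fell by 2.28 ± 0.21 (adjusted p = 4.64e-11) and its partner Ndc80 by 0.94 ± 0.19 (adjusted p = 4.57e-05). All 10 kinesins, motor proteins of the spindle and midzone, fell, with a median of -1.65. Kif20a, which acts in cytokinesis, fell by 2.45 ± 0.16 (adjusted p = 1.19e-14), although 29.3% of its exon bases are overlapped by a gene on the other strand. Of its 50-base windows, 74.8% are unique. Kif11, which pushes the spindle poles apart, fell the least of the kinesins, by 1.09 ± 0.18 (adjusted p = 2.15e-06).

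Of the 7 genes of condensin and chromosome structure, 6 fell. Mki67, the source of the proliferation marker Ki-67, was at 1253, 1517, 1506, 1299 and 1355 CPM at pH 7.4 and 338, 406, 458, 317.5 and 360.4 CPM at pH 6.6, and fell by 1.89 ± 0.19 (adjusted p = 1.11e-10). Top2a was at 1886, 2317, 2365, 1707 and 1785 CPM and 574, 781, 927, 605 and 718 CPM, and fell by 1.48 ± 0.13 (adjusted p = 4.86e-12). Neither gene's groups overlapped. Smc2, a core subunit of condensin, fell the most of this group, by 1.93 ± 0.13 (adjusted p = 3.96e-15).

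Of the anaphase genes 4 of 5 fell, and all 4 cytokinesis genes did. Ube2c, the ubiquitin-conjugating enzyme of the APC/C, fell by 2.22 ± 0.23 (adjusted p = 7.33e-10). Of its exon bases 22.8% are overlapped from the other strand, and 84.0% of its 50-base windows are unique. Ect2, which activates RhoA at the cleavage furrow, fell by 1.45 ± 0.12 (adjusted p = 8.65e-13). Anln, the furrow scaffold anillin, fell the least of the 55, apart from Cdc25b, by 0.73 ± 0.18 (adjusted p = 0.000476).

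**Figure D3:**
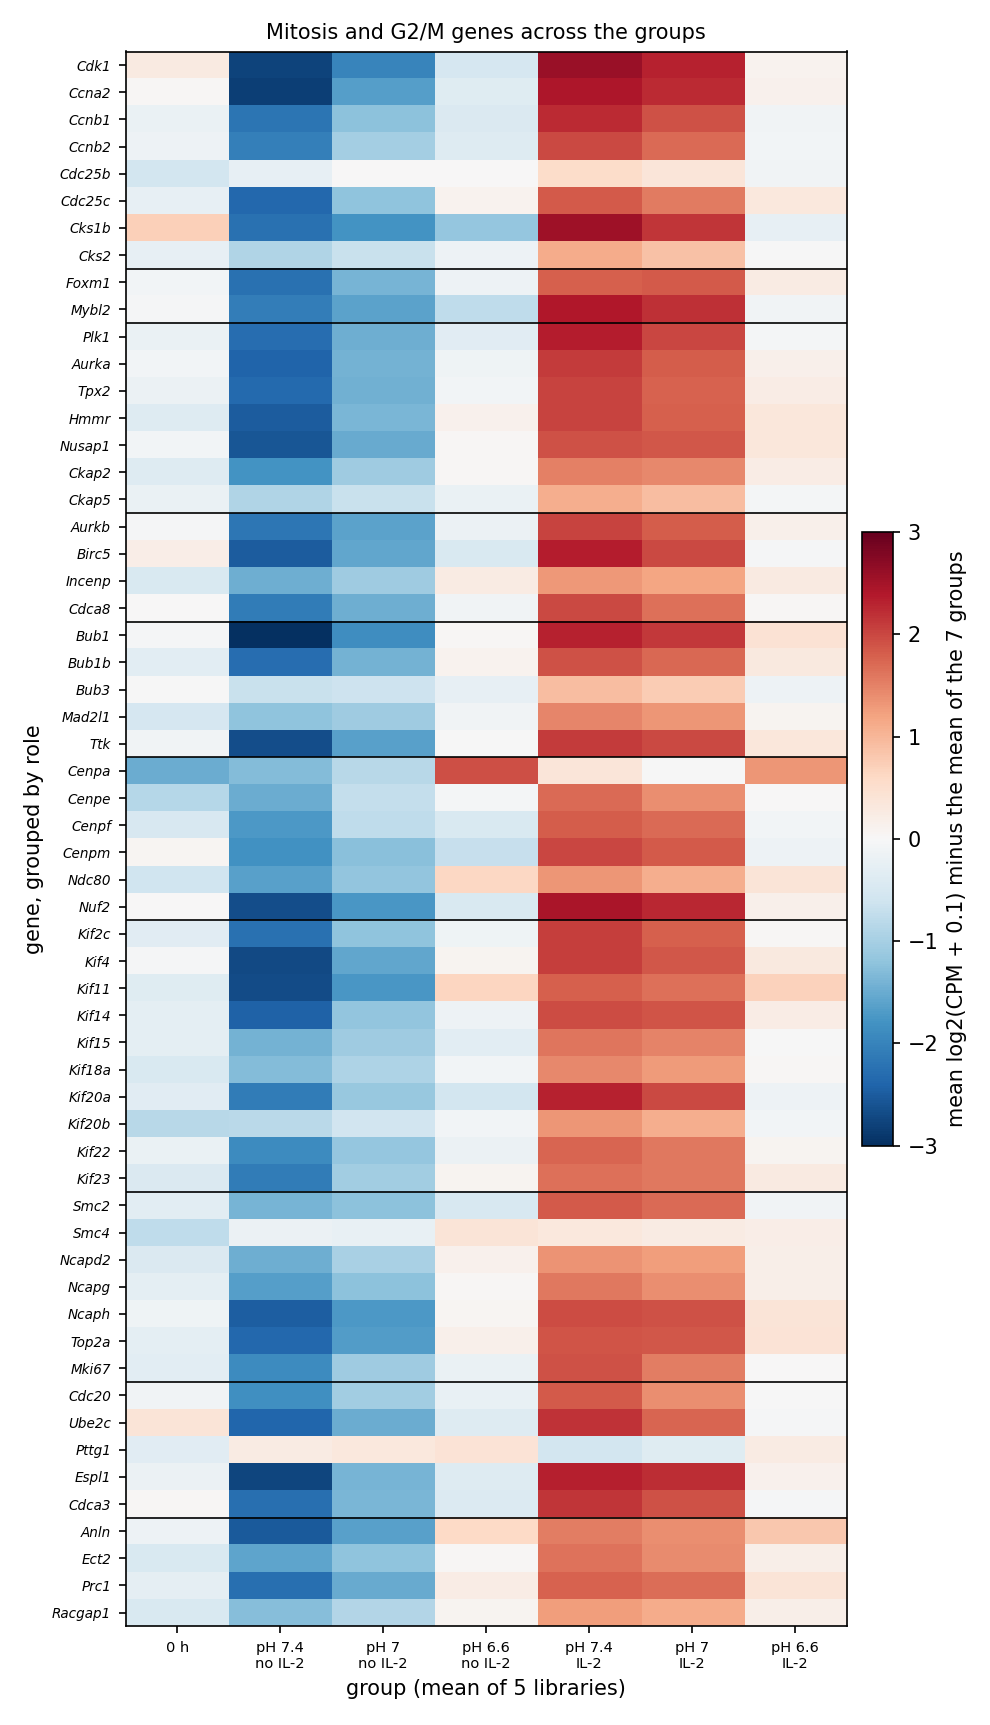
Mean log2(CPM + 0.1) of each of the 58 genes in the 7 groups, relative to the gene's mean over the groups, ordered by role. The rows of 54 genes peak at pH 7.4 with IL-2, while Cenpa, Smc4 and Pttg1 peak at pH 6.6 without IL-2.

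The genes that did not fall at pH 6.6 with IL-2 were Cenpa, Pttg1 and Smc4. Cenpa encodes the histone H3 variant that marks the centromere. It was at 191.5, 189.5, 211, 205.5 and 212 CPM at pH 7.4 and 306, 501, 479, 353 and 359.8 CPM at pH 6.6, with every acidic library above every neutral one, and rose by 0.97 ± 0.13 (adjusted p = 6.56e-08). Pttg1 encodes securin, the inhibitor of separase. It was at 16.55, 19.3, 18.8, 16.3 and 22.5 CPM at pH 7.4 and 26.8, 31.7, 35.15, 33.6 and 34.8 CPM at pH 6.6, also apart, and rose by 0.79 ± 0.10 (adjusted p = 5.40e-09). Espl1, which encodes separase itself, fell by 2.20 ± 0.19 (adjusted p = 1.25e-11).

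Smc4, the partner of Smc2 in condensin, was at 858, 857, 914, 688 and 709 CPM at pH 7.4 and 800.1, 763, 971, 569 and 632 CPM at pH 6.6. The groups overlapped, and its log2 fold change of -0.12 ± 0.12 (adjusted p = 0.397) did not pass the threshold.

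**Figure D4:**
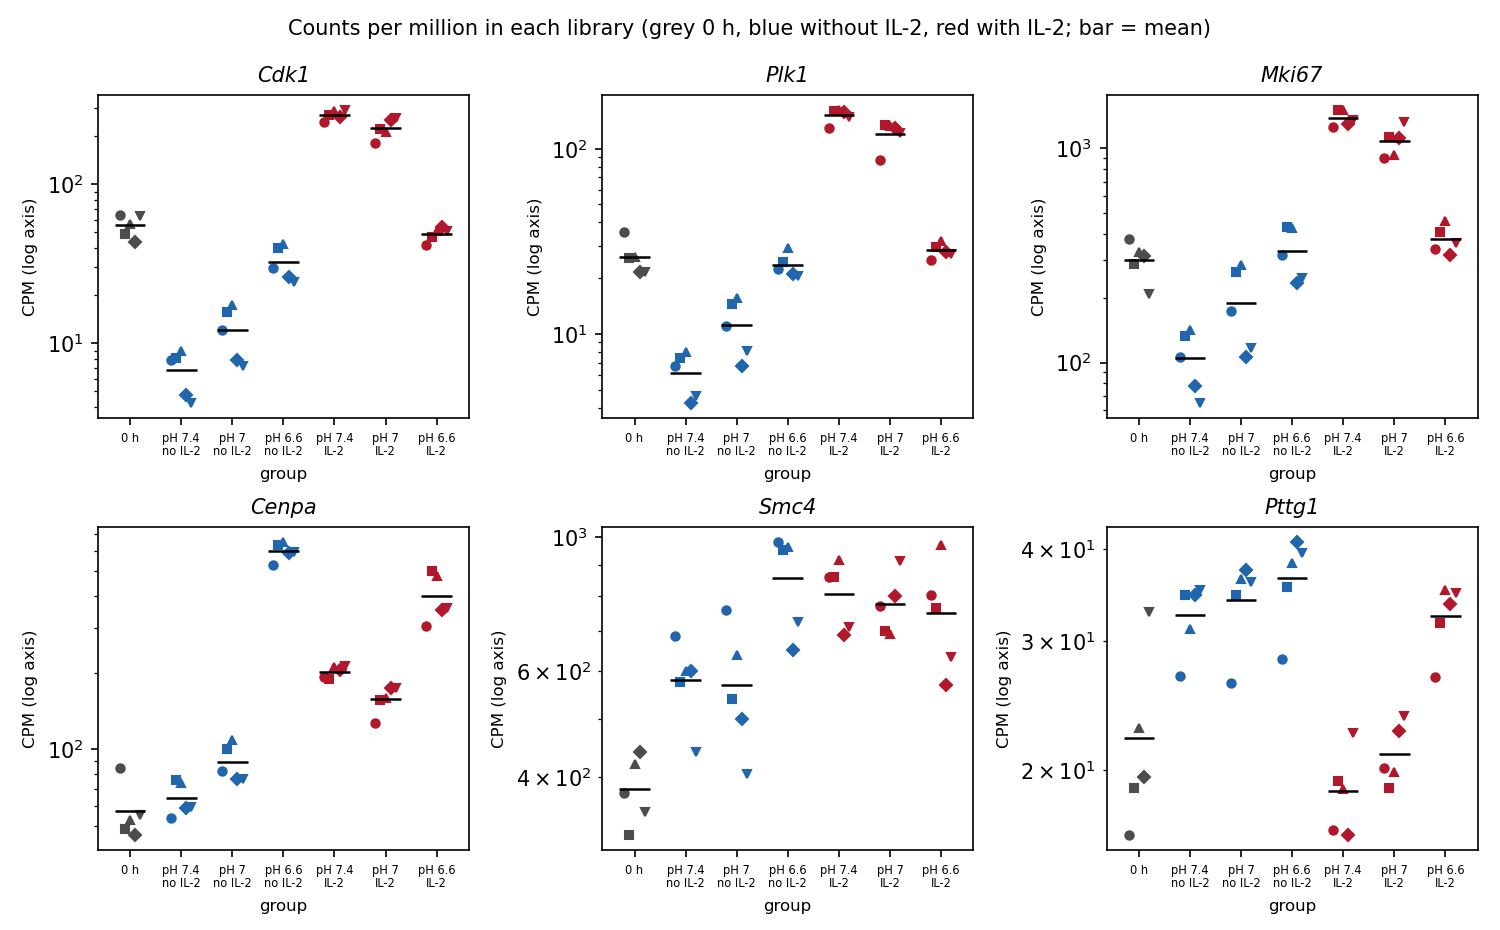
CPM in every library, on a log axis, for Cdk1, Plk1, Mki67, Cenpa, Smc4 and Pttg1; points are replicates and bars are means of 5. Cdk1, Plk1 and Mki67 peak at pH 7.4 with IL-2, Cenpa peaks at pH 6.6 without IL-2 (528 to 654 CPM), and Pttg1 has its lowest mean at pH 7.4 with IL-2.

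The second comparison asks what acidity does where IL-2 is missing, and there the direction was the opposite. At pH 6.6 without IL-2, 56 of the 58 genes were higher than at pH 7.4 without IL-2, with a median of 1.87, where 31.6% of all genes were higher and 35.4% lower. By edgeR 0 of the 58 were lower (0 at an unadjusted p under 0.05, 0 by DESeq2). The acidic libraries lay wholly above the neutral ones for 55 of the 58, as for 22.4% of all genes. All 58 had a positive difference in each of the 5 pairs, as did 30% of all genes. Cdc25b, at 0.25 ± 0.13 (adjusted p = 0.0831), and Pttg1, at 0.16 ± 0.09 (adjusted p = 0.118), did not pass.

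Kif11 rose the most, from 25.2, 30.8, 29.9, 17.5 and 12.7 CPM at pH 7.4 to 188, 308, 336, 158 and 176 CPM at pH 6.6, by 3.32 ± 0.20 (adjusted p = 5.19e-15). Cenpa went from 53.8, 75.35, 73.8, 58.96 and 59.2 CPM to 528, 636, 654, 592 and 597 CPM, and rose by 3.23 ± 0.14 (adjusted p = 2.32e-18). For both, every acidic library was several times above every neutral one. Anln, among the smallest falls with IL-2, rose by 3.07 ± 0.20 (adjusted p = 6.95e-14), from 7.56, 5.97, 6.82, 2.96 and 2.78 CPM to 49.1, 47.5, 57.6, 30.9 and 33.3 CPM.

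Cdk1 was at 7.82, 8.13, 8.98, 4.76 and 4.195 CPM at pH 7.4 and 29.75, 39.8, 42.2, 26.2 and 24.3 CPM at pH 6.6 without IL-2, and rose by 2.25 ± 0.19 (adjusted p = 2.01e-11). Cks1b, with the largest fall in IL-2, rose by 1.09 ± 0.15 (adjusted p = 1.15e-07), and Smc4 by 0.55 ± 0.12 (adjusted p = 0.000243), with overlapping groups. By role, the median rise was 2.37 for the spindle checkpoint, 2.22 for the Polo and Aurora A axis, 2.07 for cytokinesis, 1.88 for the kinesins and 1.65 for CDK1, its cyclins and activators.

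Whether pH 6.6 acted differently in the presence of the cytokine was tested as an interaction. It was negative and past the threshold for 57 of the 58 genes and positive for 1, with a median of -3.78, where 32.8% of all genes were negative and 34.3% positive. It was largest for Bub1, at -4.88 ± 0.32 (adjusted p = 5.93e-14), and Cdk1, at -4.74 ± 0.26 (adjusted p = 7.09e-16). Cenpa, which rose in acid in both settings, rose less with IL-2, with an interaction of -2.26 ± 0.19 (adjusted p = 2.70e-12), and Smc4 had the smallest negative value, at -0.67 ± 0.18 (adjusted p = 0.00124). Pttg1 was the positive one, at 0.63 ± 0.13 (adjusted p = 0.000114).

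**Figure D5:**
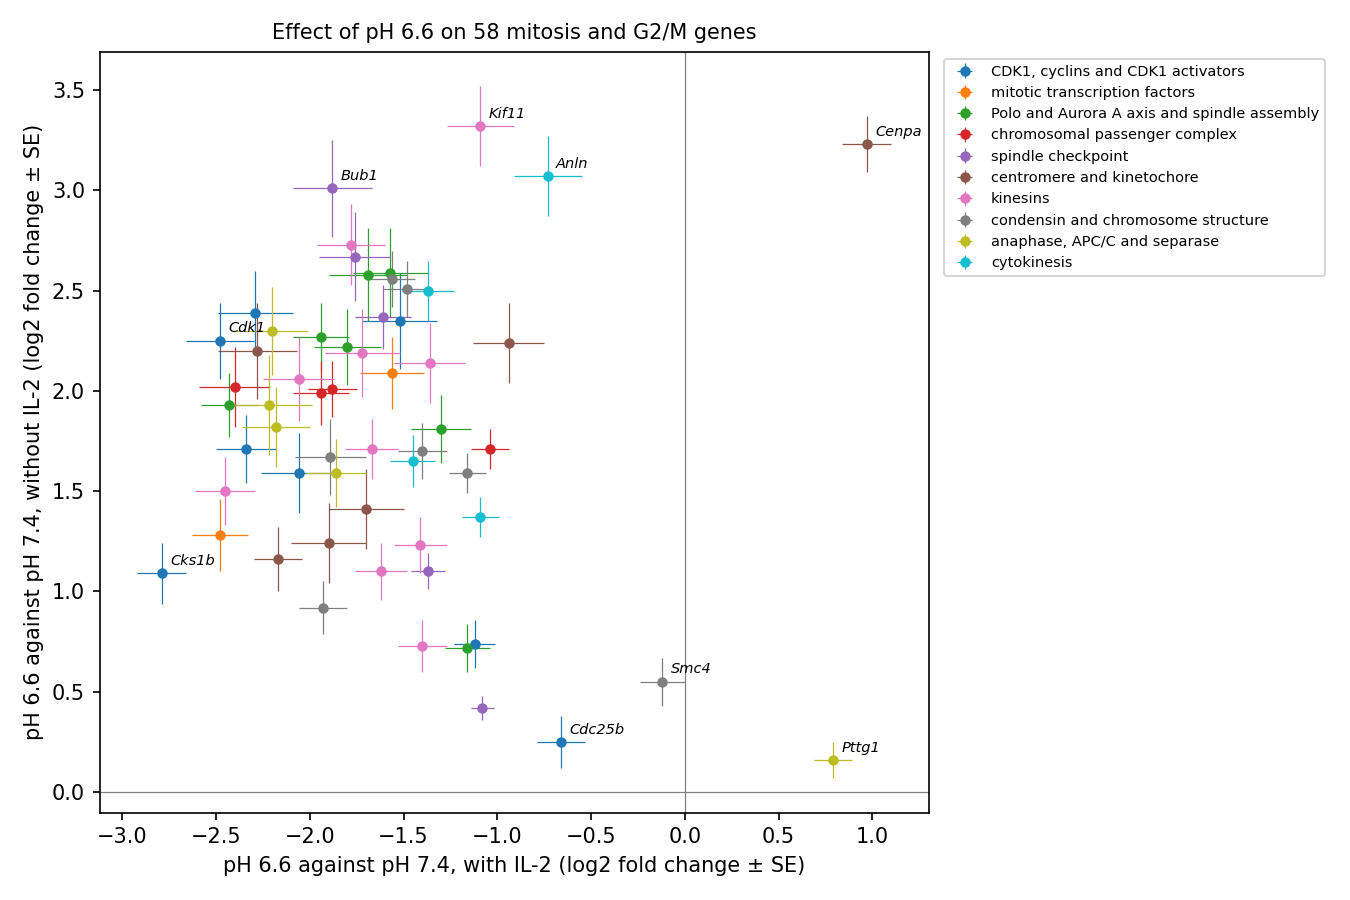
Log2 fold change of pH 6.6 against pH 7.4 with IL-2 (horizontal axis) and without IL-2 (vertical axis) for the 58 genes, with SE, by role. All points lie above 0 on the vertical axis, and Cenpa (0.97) and Pttg1 (0.79) are the points to the right of 0.

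Mild acidity without IL-2 gave a smaller rise. At pH 7 without IL-2, 39 of 58 genes were higher than at pH 7.4, with a median of 0.80, where 1.36% of all genes were higher and 0.318% lower. By edgeR 0 of the 58 were lower (0 at an unadjusted p under 0.05, 0 by DESeq2). The count was 11 without replicate 2, 20 without replicate 3 and 14 without the replicate block. The median difference was between 0.53 and 0.96 in the 5 pairs.

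Espl1 rose the most, by 1.33 ± 0.22 (adjusted p = 0.00101), then Kif14, a kinesin of the midbody, by 1.21 ± 0.22 (adjusted p = 0.00236). All 4 passenger complex genes and 6 of 7 in the Polo and Aurora A axis passed, and 3 of 6 at the centromere and kinetochore. Plk1 was at 6.69, 7.38, 8.004, 4.21 and 4.62 CPM at pH 7.4 and 11.04, 14.6, 15.6, 6.725 and 8.06 CPM at pH 7, so the groups overlapped while each pH 7 library was above the pH 7.4 library of its number. It rose by 0.85 ± 0.16 (adjusted p = 0.00259).

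In the groups without IL-2, replicates 4 and 5 stood low. They lay below replicates 1, 2 and 3 for 45 of the 58 genes at pH 7.4, 52 at pH 7 and 46 at pH 6.6, as they did for 9.91%, 15.6% and 16.9% of all genes. At pH 7 with IL-2 they lay above the others for 37 of the 58, as for 17.5% of all genes. This split was picked out after the values were seen, and the labels give no batch for it.

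With IL-2, few of the genes passed the test at pH 7 against pH 7.4. Of the 58 genes 2 were lower, with a median of -0.16, where 9.83% of all genes were lower and 9.15% higher. By edgeR 0 were higher (0 at an unadjusted p under 0.05, 0 by DESeq2). The lower genes were Cks1b, at -0.41 ± 0.12 (adjusted p = 0.0171), and Cdc20, an activator of the APC/C, at -0.44 ± 0.15 (adjusted p = 0.0385). The count was 0 without replicate 2 or replicate 3, and 21 in a fit of these 10 libraries alone. The median difference over the list was -0.37, -0.28, -0.37, 0.00 and 0.04 in pairs 1 to 5, below 0 in the first 3 and near 0 in the other two. Of the 58 genes 22 were lower at pH 7 in all 5 pairs, as were 20.8% of all genes. Replicate 1 was the lowest library at pH 7 with IL-2 for 53 of the 58 and for 26.7% of all genes.

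The interaction of pH 7 with IL-2 was negative and past the threshold for 44 of the 58, with a median of -0.98, where 2.60% of all genes were negative and 2.19% positive. The count was 9 without replicate 2, 13 without replicate 3 and 17 without the replicate block. Espl1 had the largest value, at -1.45 ± 0.29 (adjusted p = 0.00393).

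The response to IL-2 itself was large at neutral pH. At pH 7.4, 57 of 58 genes were higher with IL-2 than without and 1 was lower, with a median of 4.04, where 39.3% of all genes were higher and 41.1% lower. Cdk1 rose by 5.35 ± 0.21 (adjusted p = 1.89e-20) and Bub1 by 5.27 ± 0.26 (adjusted p = 9.18e-18). Smc4 rose by 0.48 ± 0.12 (adjusted p = 0.000884), and Pttg1 fell by 0.80 ± 0.10 (adjusted p = 3.76e-09), from 26.9, 34.6, 31.2, 34.6 and 35.2 CPM without IL-2. At pH 7, 57 were higher and Pttg1 was lower, with a median of 3.04, where 37.6% of all genes were higher and 39.5% lower.

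At pH 6.6 the difference made by IL-2 was small. With IL-2, 7 of 58 genes were higher and 1 was lower than without it, with a median of 0.22, where 13.2% of all genes were higher and 10.6% lower. Cks1b rose by 0.92 ± 0.14 (adjusted p = 4.33e-06), Mybl2 by 0.71 ± 0.16 (adjusted p = 0.00125) and Cdk1 by 0.61 ± 0.18 (adjusted p = 0.0106). The others that rose were Nuf2, Cenpm, a centromere protein, Espl1 and Smc2, by 0.38 to 0.58. Cenpa fell by 0.60 ± 0.13 (adjusted p = 0.000931). The count of higher genes was 3 without replicate 4, 4 without replicate 5 and 38 in a fit of these 10 libraries alone, while the median lay between 0.02 and 0.45 in the 5 pairs.

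The cells at 0 h give the starting point, and the comparisons with it share these 5 libraries. At pH 7.4 with IL-2, 57 of 58 genes were higher than at 0 h, with a median of 2.07, where 29% of all genes were higher and 30.9% lower. By edgeR 1 gene was lower, Pttg1, at -0.22 ± 0.10 (adjusted p = 0.0480), but it was lower in only 3 of 5 pairs and DESeq2 called 0 of the 58 lower. At pH 7.4 without IL-2, 53 were lower and 2 higher, with a median of -1.95, where 38.3% of all genes were lower and 36.9% higher. Cdk1 fell the most, by 3.04 ± 0.20 (adjusted p = 9.66e-15). Smc4 rose by 0.59 ± 0.12 (adjusted p = 8.79e-05) and Pttg1 by 0.58 ± 0.09 (adjusted p = 1.95e-06), while Kif20b, Cenpa and Cdc25b, at 0.02 ± 0.13, 0.15 ± 0.13 and 0.26 ± 0.13, did not pass.

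The acidic cultures were nearer to 0 h. At pH 6.6 with IL-2, 26 genes were higher than at 0 h and 3 lower, with a median of 0.37, where 30.5% of all genes were higher and 38.0% lower. The lower genes were Cks1b, at -0.96 ± 0.13 (adjusted p = 7.17e-08), Ube2c, at -0.51 ± 0.23 (adjusted p = 0.0479), and Bub3, at -0.16 ± 0.06 (adjusted p = 0.0296). Cks1b was lower in 5 of 5 pairs, Ube2c in 3 and Bub3 in 4. DESeq2 called 1 of the 58 lower and 33 higher. At pH 6.6 without IL-2, 22 were higher and 8 lower, with a median of 0.09 (-0.02 without replicate 2), where 34.8% of all genes were higher and 40.3% lower.

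Around these medians the genes spread widely. Cenpa was at 84.55, 48.3, 52.5, 45.8 and 55.15 CPM at 0 h, and its log2 fold change at pH 6.6 was 2.78 ± 0.14 (adjusted p = 2.85e-17) with IL-2 and 3.38 ± 0.14 (adjusted p = 9.02e-20) without. Cdk1 was at 64.5, 48.8, 56.4, 43.6 and 62.9 CPM at 0 h and was lower at pH 6.6 without IL-2, by 0.79 ± 0.18 (adjusted p = 0.000175). Kif11 was higher there, by 1.02 ± 0.18 (adjusted p = 6.65e-06). All 4 cytokinesis genes were higher at pH 6.6 without IL-2 than at 0 h, with a median of 0.53.

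Cells at pH 6.6 with IL-2 were also set against cells at pH 7.4 without it. Of the 58 genes, 56 were higher in acid with IL-2, with a median of 2.09, where 30.4% of all genes were higher and 34.1% lower. Bub1 differed the most, at 3.39 ± 0.25 (adjusted p = 7.28e-13). Pttg1, at 0.00 ± 0.09 (adjusted p = 0.970), and Cdc25b, at 0.13 ± 0.13 (adjusted p = 0.375), did not pass.

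Other genes of mitosis, a list of 99 outside the 58, went the same ways in part. At pH 6.6 with IL-2, 84 were lower and 10 higher, with a median of -1.13, where 40.9% of all genes were lower and 35.4% higher. All 14 outer kinetochore partners and all 19 other spindle, midbody and G2/M genes fell, with medians of -1.53 and -1.52. Of 15 APC/C genes 10 fell and 3 rose, with a median of -0.28, and of 11 DREAM and MuvB genes 7 fell and 4 rose, with a median of -0.47. The share of DREAM and MuvB genes that rose, 36.4%, was near that of all genes. The largest falls were those of Shcbp1, a midbody protein (-2.67 ± 0.17), Tfdp1, the E2F partner DP1 (-2.43 ± 0.09), and Spc25, of the NDC80 complex (-2.39 ± 0.19). The largest rises were those of Rbl2, the pocket protein p130 (0.96 ± 0.07), Lin52, a MuvB subunit (0.88 ± 0.12), and Stag2, a cohesin subunit (0.66 ± 0.11). Without IL-2, 79 of the 99 were higher at pH 6.6 and 7 lower, with a median of 0.91, where 31.6% of all genes were higher and 35.4% lower.

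S phase genes, 40 genes of replication and nucleotide supply, were all lower at pH 6.6 with IL-2, with a median of -2.06. Of all genes tested, 40.9% were lower and 35.4% higher. Tyms, which makes thymidylate, fell by 3.39 ± 0.15, Gins1, of the replicative helicase, by 2.84 ± 0.17, and Cdc6, which licenses origins, by 2.69 ± 0.17. Without IL-2, 32 of the S phase genes were higher at pH 6.6 and 2 lower, with a median of 0.83. Of all genes, 31.6% were higher and 35.4% lower. At pH 6.6, 29 of the 40 S phase genes were higher with IL-2 than without and 1 was lower, with a median of 0.65. Of all genes, 13.2% were higher and 10.6% lower. The difference between the lists was not tested.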

How the data were processed

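Bulk RNA of 35 CTL cultures was sequenced as stranded mRNA libraries with single reads. The authors deposited raw counts of reads per gene for each library, and the submitters' processing notes name cutadapt 1.8, STAR 2.5.2b, HTSeq 0.6.1 and GRCm38. The counting strand setting and the annotation release were not given in the sources used here. Between 32.8% and 48.3% of alignments per library were not unique and counted for no gene, so genes with near-identical copies are under-counted. The 5 rows naming no gene were left out.

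Gene IDs were matched to GENCODE M21 (48349 of 48709). Counts were fitted with edgeR 4.0.16 in R 4.3.3 (TMM, filterByExpr with a minimum count of 10, robust quasi-likelihood) over all 35 libraries, with the replicate number as a block. The study's statistics name paired tests, and the deviations of same-numbered libraries correlated above 0.1 in 95 of 105 pairs. p-values were adjusted by Benjamini-Hochberg over 13819 genes, with a threshold of 0.05. The common biological coefficient of variation was 0.120. Levels over the list use a prior count of 2. No 2 libraries of a group agreed within sampling noise (lowest chi-square per degree of freedom 6.17 over 70 pairs). The procedure was run on simulated data in which most genes were equal in all groups and replicates carried no effect, unlike these data. That run does not show how the replicate block behaves here. Alternatives were RLE normalization, DESeq2 1.42.0, other filters, no block, only the groups compared, each replicate number left out, a log2 fold change of at least 1, and, for levels, only genes with at least 95% unique windows.

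The 58 genes and the other lists were chosen with earlier results of these data known. Named with full values are Cdk1, Ccnb1, Plk1, Aurkb, Bub1b, Top2a, Mki67 and Foxm1, the largest and smallest change in each role group of 4 or more at pH 6.6 with IL-2, up to 10 exceptions in a comparison, and the 3 largest and up to 3 opposite members of the other lists.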

Additional observations from a re-analysis of the deposited data

Results flagged for a closer look

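Of 189 groups of 5 libraries examined, over the 26 genes named in full and the median of the 58, 11 held a library apart from the other 4, and chance gives about 1 in 20. At pH 7 with IL-2, replicate 1 was low for Plk1 (86.9 CPM, others 122 to 134), Aurkb (122 CPM, others 157 to 163), Bub1b (153 CPM, others 194 to 207), Cdc25b (97.1 CPM, others 137 to 145) and Kif20a (140 CPM, others 180 to 192). At 0 h, replicate 1 was high for Cdc25b (104 CPM, others 60.7 to 64.5) and Cenpa (84.6 CPM, others 45.8 to 55.1), replicate 4 for Ckap5 (188 CPM, others 140 to 147) and replicate 5 for Bub3 (131 CPM, others 101 to 109). Replicate 5 was low for Smc2 at pH 7.4 without IL-2 (37.4 CPM, others 44.7 to 47.4) and replicate 1 for Pttg1 at pH 7 without IL-2 (26.2 CPM, others 34.6 to 37.4).

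The effect of acidity differed with IL-2 by the interaction test of edgeR. At pH 6.6 the interaction was negative and past the threshold for 57 of the 58 genes, as for 32.8% of all genes. At pH 7 it was so for 44, as for 2.60% of all genes. The count at pH 7 was 9 without replicate 2 and 13 without replicate 3. Among the genes named, the interaction at pH 6.6 was -4.88 ± 0.32 for Bub1 (adjusted p = 5.93e-14) and -2.26 ± 0.19 for Cenpa (adjusted p = 2.7e-12). It was -0.67 ± 0.18 for Smc4 (adjusted p = 0.00124) and 0.63 ± 0.13 for Pttg1 (adjusted p = 0.000114).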

How the results depend on the processing

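Counts and medians over the 58 genes were recomputed under each alternative, and 304 values stayed within 1.5 times the count or 1 SD of the median or level, while 25 moved further. No called result reversed. The median at pH 6.6 without IL-2 against 0 h, 0.09, took the other sign without replicate 2. At pH 7 with IL-2, the 2 lower genes became 4 with DESeq2, 1 with genes of at least 1 count, 1 without the replicate block, 21 with only the groups compared and 0 with a log2 fold change of at least 1. At pH 7 without IL-2, the 39 higher genes became 14 without the replicate block and 13 with a log2 fold change of at least 1. For IL-2 at pH 6.6, the 7 higher genes became 4 with genes of at least 1 count, 4 without the replicate block, 38 with only the groups compared and 0 with a log2 fold change of at least 1. For the interaction at pH 7, the 44 negative genes became 24 with genes of at least 1 count, 17 without the replicate block and 28 with a log2 fold change of at least 1. Against 0 h, a log2 fold change of at least 1 left 2 of 26 higher genes at pH 6.6 with IL-2 and 4 of 22 without. The level at pH 7.4 with IL-2 was 7.53 over genes with unique windows, against 7.42. The cause was not tested. The replicate block moved no other count of calls by over 1.5 times.

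Leaving out each replicate number in turn gave 55 to 55 lower genes at pH 6.6 with IL-2 (median -1.68 to -1.63), 0 to 2 at pH 7 with IL-2 (-0.24 to -0.12), 56 to 57 higher at pH 6.6 without IL-2 (1.82 to 1.94) and 11 to 38 at pH 7 without IL-2 (0.75 to 0.86). IL-2 gave 57 to 57 higher at pH 7.4 (3.92 to 4.12), 56 to 57 at pH 7 (2.83 to 3.16) and 3 to 9 at pH 6.6 (0.17 to 0.31). The interaction gave 57 to 57 negative at pH 6.6 (-3.85 to -3.71) and 9 to 42 at pH 7 (-1.05 to -0.86). Against 0 h there were 57 to 57 higher at pH 7.4 with IL-2 (2.02 to 2.15), 23 to 34 at pH 6.6 with IL-2 (0.32 to 0.52), 53 to 53 lower at pH 7.4 without IL-2 (-2.0 to -1.81) and 16 to 23 higher at pH 6.6 without IL-2 (-0.02 to 0.18). Set against pH 7.4 without IL-2, 55 to 56 were higher at pH 6.6 with IL-2 (2.02 to 2.20). The lowest counts at pH 7, 11 without IL-2 and 9 for the interaction, came without replicate 2.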
